A study of Mus musculus with 10 samples.

Results

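The comparison described here sets ordinary peripheral cholangiocytes (pC), the epithelial cells lining the small bile ducts inside the liver, against hepatocytes (H), the liver's parenchymal cells. Its members were taken by sample title, 3 pC and 3 H libraries, which makes 6 of the 10 libraries of the series. The other 4 are hepatocyte-derived peripheral cholangiocytes (HpC), the cells the series is named for, and they enter here as part of the statistical fit. The comparison gives the distance between the cell type from which HpC derive and the cell type after which they are named.

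All cells came from mouse liver and were sorted by flow cytometry straight into extraction buffer. Both groups carried floxed alleles of Rbpj and of Hnf6 (Onecut1), on a mixed background of the strains C57BL/6, FVB and CD1. The H mice also carried 1 copy of Alb-Cre, a recombinase transgene driven by the albumin promoter, which acts in hepatocytes and in the precursors that form ducts. The pC mice had no Cre. By postnatal day, the pC mice were aged P151, P119 and P142 (pC1 to pC3) and the H mice P134, P139 and P139 (H1 to H3). The labels do not say whether H2 and H3 are separate animals, so the p-values measure the spread between these samples, which may be partly technical. H cells were collected after collagenase perfusion, whereas pC cells were sorted from the nonparenchymal fraction after further digestion with collagenase, accutase and trypsin. Cell type, Cre deletion and digestion therefore differ together between the groups and cannot be told apart.

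Hepatocytes and cholangiocytes both descend from the hepatoblast. Hepatocytes make most plasma proteins, synthesise bile acids, detoxify ammonia and foreign compounds and balance glucose and lipids, under nuclear receptors and factors such as HNF4A and CEBPA. Cholangiocytes form a polarised, ciliated tube that modifies bile. Notch signalling through JAG1 and RBPJ, with SOX9 and HES1 downstream, is known for its part in their specification, and TGF-beta and YAP signalling for promoting duct character.

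Values are TPM, a transcript level corrected for transcript length and library total, summed per gene and rescaled between libraries, called scaled TPM below. Differences are pC minus H in log2(scaled TPM + 1), with their standard error, and adjusted p-values are from limma over the 14765 genes kept, with 0.05 as the threshold. A difference on this scale is smaller than the true log ratio for low genes. "Higher" and "lower" refer to pC relative to H. In sorted bulk RNA, fewer cells of a type and less RNA per cell cannot be told apart.

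Cell type markers matched the labels. The summed level of 6 cholangiocyte markers was 5266 to 5481 scaled TPM in pC and 42.2 to 59.3 in H, and that of 6 hepatocyte markers 972 to 2491 in pC and 71859 to 82934 in H. Genes at 1 TPM or more numbered 13894 to 14489 in pC and 10232 to 10687 in H. The number of reads behind each library is unknown. Mitochondrially encoded genes made up 10.5% to 12.4% of deposited TPM in pC and 22.6% to 26.0% in H. Library pC3 stood apart. The pancreatic enzyme gene Cela2a was at 2.78, 2.13 and 169 scaled TPM in pC1 to pC3 and 7.5, 7.16 and 13.3 in H1 to H3, and most transcripts of hepatocytes were lower in pC3 than in pC1 and pC2 (values below). Without pC3, the count of genes called per list stayed within 1.5 times of the count given below, apart from the lower genes of the TGF-beta and BMP list (1 in place of 2).

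Promoter sequences are shown for 4 genes, of which the first pair was lower and the second pair higher in pC, as examples that hold a factor motif. Cyp8b1 encodes the enzyme that makes cholic acid, Cyp3a41a a drug-metabolising P450, Ccn1 a matrix protein and known YAP target, and Axl a receptor kinase, also a known YAP target. Each run below is 240 bases lying just upstream of the RefSeq start site, read 5′ to 3′ on the gene's strand (RefSeq, GRCm38.p6). Capitals mark a match to the motif of HNF4 (CAAAGTCCA) in Cyp8b1 and Cyp3a41a, or of TEAD, the DNA partner of YAP (ACATTCC), in Ccn1 and, on the opposite strand, in Axl. They were picked after the motif search because they hold a match.
Cyp8b1, chr9:121916316-121916555, minus strand: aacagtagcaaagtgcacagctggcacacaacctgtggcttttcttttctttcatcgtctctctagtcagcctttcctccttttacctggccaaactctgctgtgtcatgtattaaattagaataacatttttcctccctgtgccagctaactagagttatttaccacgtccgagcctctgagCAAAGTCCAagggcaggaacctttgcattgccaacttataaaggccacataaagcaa
Cyp3a41a, chr5:145720147-145720386, minus strand: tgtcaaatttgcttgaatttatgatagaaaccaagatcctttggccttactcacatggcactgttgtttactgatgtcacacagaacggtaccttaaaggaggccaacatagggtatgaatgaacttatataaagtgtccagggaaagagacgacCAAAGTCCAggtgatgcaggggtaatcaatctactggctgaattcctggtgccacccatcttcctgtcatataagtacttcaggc
Ccn1, chr3:145649996-145650235, minus strand: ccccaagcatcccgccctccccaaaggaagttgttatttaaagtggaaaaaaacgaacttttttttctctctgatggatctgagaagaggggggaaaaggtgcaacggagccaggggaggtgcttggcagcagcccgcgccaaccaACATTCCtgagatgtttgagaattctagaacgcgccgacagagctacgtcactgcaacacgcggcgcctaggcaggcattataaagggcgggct
Axl, chr7:25788744-25788983, minus strand: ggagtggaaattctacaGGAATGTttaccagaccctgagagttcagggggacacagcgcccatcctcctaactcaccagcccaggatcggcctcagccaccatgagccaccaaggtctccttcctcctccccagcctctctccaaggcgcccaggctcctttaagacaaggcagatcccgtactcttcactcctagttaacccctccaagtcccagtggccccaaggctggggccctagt
The match began 67 bases before the start in Cyp8b1, 95 in Cyp3a41a, 104 in Ccn1 and 233 in Axl. Searched on both strands from 250 bases before to 50 after the start, the HNF4 motif was present in 0.555% of the 27025 genes with a promoter in the table, and the TEAD motif in 4.47%. Cyp8b1 was at 0.423, 1.27 and 0.13 scaled TPM in pC1 to pC3 and 148, 135 and 116 in H1 to H3, and Axl at 2.31, 6.06 and 5.91 in pC and 0, 0.053 and 0 in H. The TEAD motif was not limited to genes higher in pC, since the promoter of Ehhadh, an enzyme of peroxisomal fatty acid oxidation that was lower, holds it too. A comparison of motif shares between coding genes called at least 4-fold higher in pC (1317, or 10.2% of the coding genes tested) and at least 4-fold lower (1338, or 10.4%) was void, since 75.2% and 77.4% of them had an entry in the table, under the 80% needed.

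The floxed genes were looked at before any other. Rbpj (transcript level summed over the whole gene, so it does not check the deletion) was at 5.47, 5.8 and 6.78 scaled TPM in pC1 to pC3 and at 1.63, 1.3 and 1.22 in H1 to H3. It was low in both groups and higher in pC in every library, by 1.56 ± 0.18 (adjusted p = 3.94e-05). Onecut1, a factor of hepatocytes and of early duct cells, was at 81.3, 62.5 and 72.3 in pC and 112, 90.4 and 46.9 in H. The H libraries spanned the pC range and the difference of -0.12 ± 0.38 did not pass (adjusted p = 0.796), and on TPM as deposited its sign changed (1.46). Of the Notch targets that RBPJ acts on, Hes1 (ENSMUSG00000022528, chromosome 16, 30064384 to 30067796, plus strand), a repressor of differentiation, was at 754, 558 and 289 in pC and 25.5, 14.1 and 21.6 in H, a difference of 4.58 ± 0.33 (adjusted p = 1.51e-06), and its level in pC itself ranged widely. Hey1 was at 1.93, 2.13 and 1.81 in pC and near 0 in H, a difference of 1.54 ± 0.18 (adjusted p = 3.63e-05). At so low a level the added 1 limits this size, so it cannot be set beside that of Rbpj.

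Across the transcriptome, pC and H differed in most genes. Of 14765 genes, 8859 passed the threshold (60.0%), 4475 higher in pC (30.3%) and 4384 lower (29.7%), with a median difference of 0.08 over all genes. Among the most extreme differences, lower genes outnumbered higher ones: 185 genes were at least 64-fold lower and 42 at least 64-fold higher, and at 16-fold the counts were 521 and 332. These counts by fold rest on log2(scaled TPM + 1) and on this rescaling between libraries alone. On TPM as deposited the median difference over all genes was 1.20, so the excess of lower genes can change with the scaling. Their balance under another scaling was not looked at. In 596 genes all H libraries were listed at 0, and 416 of these passed the threshold. In 36 genes all pC libraries were listed at 0, and 26 of these passed. The filter for genes kept also counted the HpC libraries, which are of cholangiocytes. It can therefore favour genes listed at 0 in H, so the gap between these counts is not a measure of the cell types. The part of the filter in that gap was not tested.

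The balance of the counts depends on the scaling between libraries. The scaling factors were 1.54 to 1.60 in pC and 0.48 to 0.57 in H. On TPM as deposited, 9361 genes were higher and 1255 lower, so that 88.2% of the calls were higher against 50.5% after rescaling, and the median of all genes moved by 1.12 on the log2 scale. Scaling by the median of ratios moved it by 0.11. Of the 4475 genes called higher, 3342 were called higher under all 3 other scalings tried (TPM as deposited, median of ratios and quantile normalisation), and none was called lower on deposited TPM. Of the 4384 called lower, 1248 were called lower under all 3, and 485 were called higher on deposited TPM. The sign of a small difference below 0 can therefore change with the scaling.

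**Figure D1:**
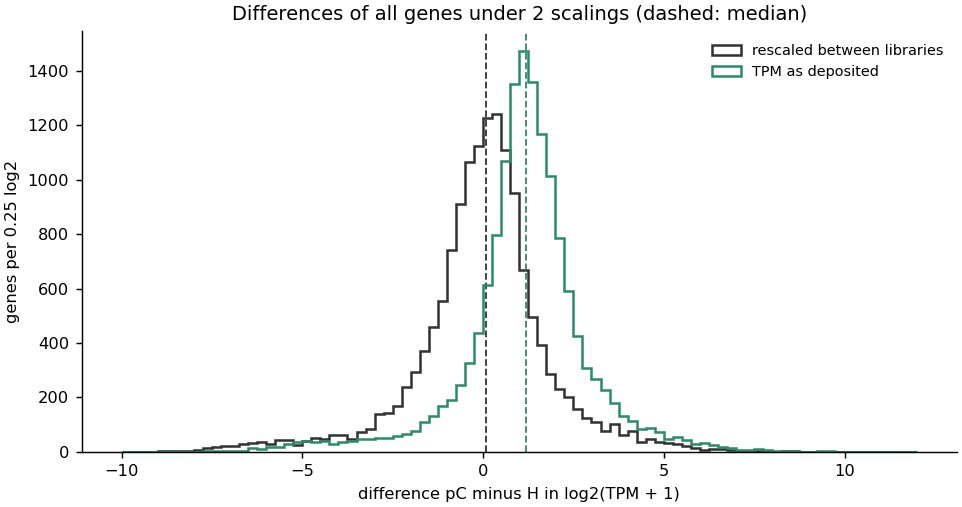
Number of genes (vertical axis, per bin of 0.25) by their difference between pC and H in log2(TPM + 1) (horizontal axis), after rescaling between libraries (black) and on TPM as deposited (green), with dashed lines at the medians. The whole distribution moves to the right on deposited TPM, by 1.12 at the median.

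Among coding genes whose log2 level averaged 5 or more, the 12 largest differences in each direction named the groups that follow. Highest in pC was Ankrd1, a YAP target gene, at 949, 407 and 657 scaled TPM in pC1 to pC3 against 0.641, 0.575 and 0.964 in H1 to H3 (8.53 ± 0.36, adjusted p = 7.62e-08). Every pC library lay far above every H library, and pC2 was lowest of the 3. Spp1 (ENSMUSG00000029304, chromosome 5, 104435118 to 104441050, plus strand), which encodes osteopontin, was at 4029.9, 4374 and 4177 against 15.2, 17.1 and 20.3 (7.83 ± 0.29), with little spread among the pC libraries. Next came the immediate early gene Fosb (7.29), the class II chaperone Cd74 (6.63), the membrane linker ezrin, Ezr (6.60), Carmil1, a regulator of actin capping (6.46), and Tgtp2, an interferon-induced GTPase with a near-identical neighbour, so that its value is uncertain (5.94). Atf3 (5.56), Ccn1 (5.24), Sox9 (5.11), the inflammatory regulator Nfkbiz (5.08) and Ifrd1 (5.08) completed the set.

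On the other side stood hepatocyte products. Cyp2a4 (-8.95) and Cyp2a5 (-8.66), near-identical cytochrome P450 genes whose reads can be split between them, were lowest in pC. Cyp7a1, the rate-limiting enzyme of bile acid synthesis, was at 7.25, 0.072 and 0.057 in pC and 944, 909.5 and 686 in H (-8.64 ± 1.01, adjusted p = 4.24e-05). Of the pC libraries pC1 alone held more than a trace. The kininogen gene Kng1 was at 12.8, 10.3 and 1.14 in pC and 2349, 2646 and 2519 in H, and the apolipoprotein gene Apoa1 at 60.9, 109 and 9.73 in pC and 12895, 14256 and 15189 in H. In both, pC3 was lowest by several fold. Slc27a2 (-8.49), a fatty acid carrier and acyl-CoA synthetase, Fgb (fibrinogen, -8.29), Apoa2 (-8.06), Apoa4 (-8.05), hemopexin, Hpx (-8.04), haptoglobin, Hp (-8.01), and the P450 gene Cyp3a41a (-7.93) followed. All 24 kept their sign under every scaling tried.

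**Figure D2:**
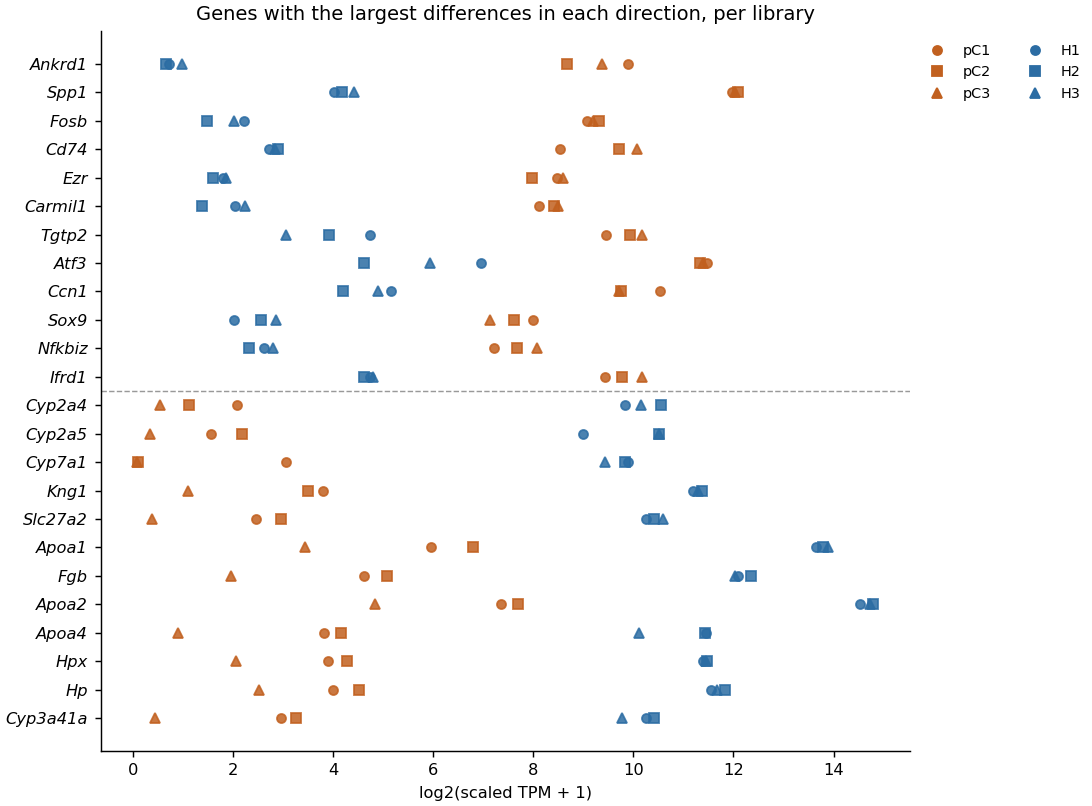
Levels in log2(scaled TPM + 1) (horizontal axis) of the 12 genes with the largest differences in each direction (rows, split by the dashed line), with orange points for pC and blue for H libraries. The groups are apart in every row, and for the lower genes the triangle of pC3 lies left of the other pC libraries except for Cyp7a1, where it lies level with pC2.

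Gene lists drawn from general knowledge of the liver, with earlier results of these data known, were then followed. They describe the comparison and do not test it, since such a choice can favour calls. A list's count is to be read against the 30.3% higher and 29.7% lower over all genes tested, and its median against 0.08. The plot of list members shows the 25 lists together.

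**Figure D3:**
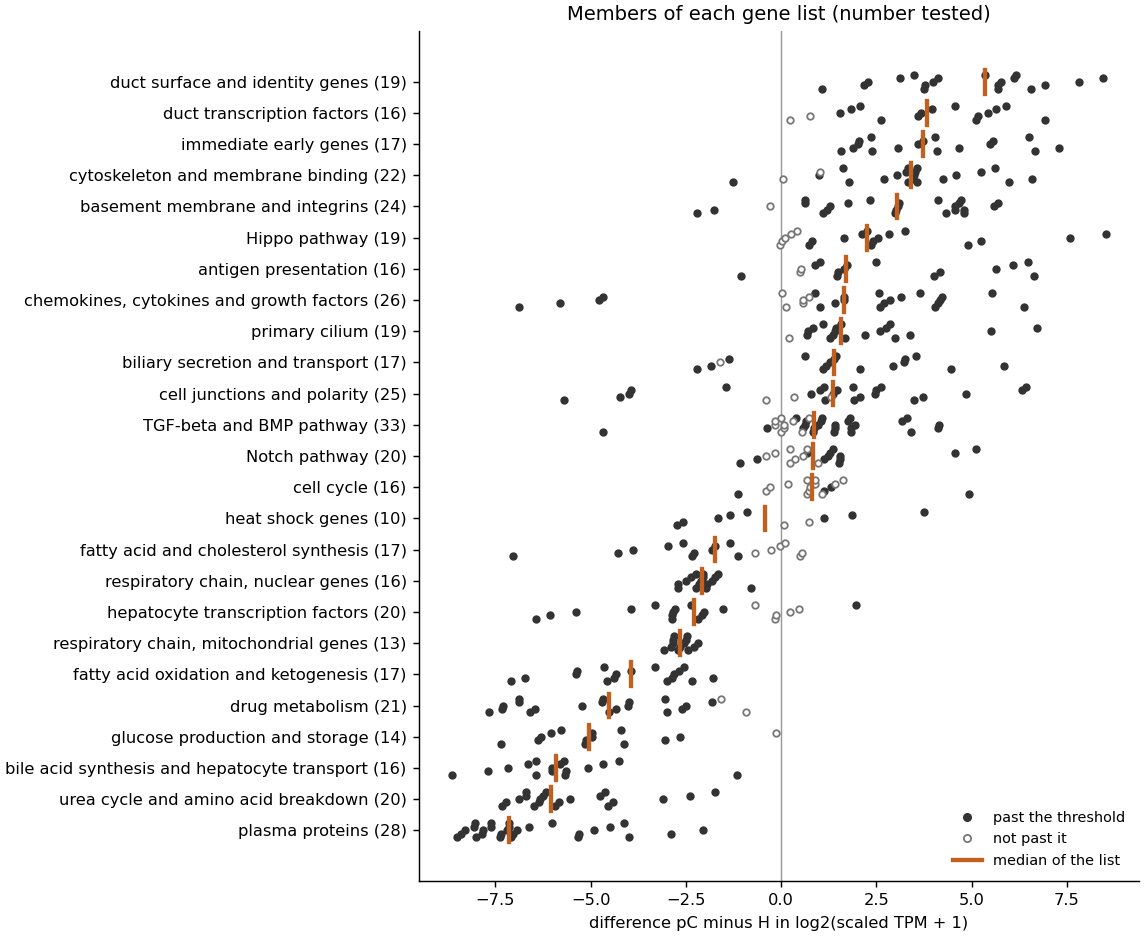
Differences between pC and H in log2(scaled TPM + 1) (horizontal axis) for the tested members of 25 gene lists (rows, with the number tested), filled where past the threshold, with an orange bar at each list's median. Medians run from -7.14 for plasma proteins to 5.35 for duct surface genes. The median of the heat shock list changes sign to 1.09 on TPM as deposited and 0.80 with quantile normalisation.

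Hepatocyte secretory and metabolic genes were low in pC as a body. All 28 plasma protein genes were lower (median -7.14, 27 of them also on deposited TPM), among them Alb (ENSMUSG00000029368, chromosome 5, 90460897 to 90476602, plus strand), at 2086, 1706 and 777 scaled TPM in pC and 51336, 58011 and 58686 in H. All pC libraries were far below H, and pC3 was lowest. The transthyretin gene Ttr differed by -4.91 ± 0.42. The smallest difference of the list, in a gene named after its values were seen, was that of Ambp, which encodes alpha-1-microglobulin and bikunin, at 1156 ± 143.5 in pC (SD, n = 3) and 4782 ± 272 in H.

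All 16 tested genes of bile acid synthesis and hepatocyte transport were lower (median -5.90, 15 on deposited TPM). Beside Cyp7a1 the largest were the uptake carrier Slco1b2, at 2.15, 2.76 and 0.366 in pC and 428, 585 and 568 in H, the bile acid-conjugating ligase Slc27a5 (-7.17) and the canalicular exporter Abcc2 (-6.64). The urea cycle and amino acid breakdown list had 20 of 20 lower (median -6.05, 18 on deposited TPM). Carbamoyl phosphate synthetase, Cps1, the entry step of the urea cycle, was at 7.92, 9.26 and 0.721 in pC and 796, 980.0 and 822 in H. Hpd, of tyrosine breakdown (-7.22), the liver glutaminase Gls2 (-6.88) and arginase, Arg1 (-6.69), came next.

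In drug metabolism 19 of 21 genes were lower (median -4.51, 18 on deposited TPM), led by the P450 genes Cyp3a11 (-7.67), Cyp2c29 (-7.32), Cyp2e1 (-7.31) and Cyp2f2 (-6.89). The 2 that did not pass were the quinone reductase Nqo1, at 0.821, 0.638 and 0.269 in pC and 3.65, 6.18 and 1.97 in H, and the glutathione transferase Gstp1, at 62.4, 49.5 and 45.7 in pC and 91.1, 106 and 104 in H. Their groups did not overlap, but neither passed (adjusted p = 0.187 and 0.0882), and the Gstp1 difference was 0.65 on deposited TPM, with the other sign. In a fit of pC and H alone both passed (adjusted p = 0.00555 for Nqo1 and 0.00254 for Gstp1).

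Fatty acid oxidation and ketogenesis had 17 of 17 lower (median -3.93, 15 on deposited TPM). The binding protein Fabp1 was at 58.6, 67.7 and 22.5 in pC and 8605, 5785 and 4771 in H, followed by the peroxisomal enzymes Acaa1b (-6.73) and Ehhadh (-5.34) and the receptor Ppara (-5.37), which controls many of these genes. Of the glucose list 13 of 14 were lower (median -5.04, also 13 on deposited TPM), led by Pck1 (-7.35), Fbp1 (-6.39) and G6pc (-6.31) of glucose production. The exception was the transporter gene Slc2a2, at 146, 143 and 109 in pC and 138, 143 and 153 in H, whose groups overlapped (adjusted p = 0.534) and whose difference changed sign to 1.46 on deposited TPM.

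Lipid synthesis split within its list. Of 17 genes 11 were lower and 6 did not pass (median -1.73), while on deposited TPM 5 were higher and 4 lower. Lower were the desaturase Scd1, at 9.79, 19 and 6.61 in pC and 477, 3283 and 2345 in H, Dgat2 of triglyceride synthesis (-4.28), the sterol sensor partner Insig2 (-3.90) and acetyl-CoA carboxylase, Acaca (-2.97). H1 held far less Scd1 than H2 and H3. Of the 6 that did not pass, 4 of cholesterol synthesis are named after their values were seen: Hmgcs1 (-0.68), Lss (-0.26), Fdft1 (0.11) and Sqle (0.56). On deposited TPM the signs of Hmgcs1 (0.91) and Lss (1.28) changed. Sqle was at 27.8, 32.4 and 38.5 in pC and 34.9, 23.5 and 12.6 in H, and its groups overlapped.

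Respiratory chain genes were also lower, by less. All 16 nuclear genes (median -2.08) and all 13 mitochondrial genes (median -2.65) passed, but on deposited TPM 3 and 11 did, and with quantile normalisation 15 and 5. The largest were Sdhb (-2.71), Cox5a (-2.69), Cyc1 (-2.48) and Cox6c (-2.36) among the nuclear genes and mt-Nd2 (-3.06), mt-Atp6 (-2.90), mt-Cytb (-2.83) and mt-Nd4l (-2.82) among the mitochondrial ones. Reads of the latter can also match nuclear copies.

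Transcription factors of hepatocytes differed unevenly. Of 20 genes 14 were lower, 1 higher and 5 did not pass (median -2.28), against 9 lower and 5 higher on deposited TPM. The lower ones were led by the xenobiotic receptor Nr1i3 (-6.44), the lipid regulator Creb3l3 (-6.07), Ppara and Tbx3 (-3.94). Hnf4a, the central factor of hepatocyte identity, was at 39.4, 51.6 and 55.8 in pC and 375, 361 and 327 in H (-2.84 ± 0.23, adjusted p = 2.69e-06), so its transcript remained well above 0 in every pC library. The pioneer factor Foxa1 was higher, at 37.4, 41.6 and 42.4 in pC and 9.3, 10.1 and 9.59 in H. Foxa2 (-0.67), Nr5a2 (-0.16), Onecut1, Onecut2 (0.23) and Prox1 (0.47) did not pass, and the signs of Foxa2, Nr5a2 and Onecut1 changed on deposited TPM.

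Duct regulators stood on the other side. Of 16 genes 14 were higher and none lower (median 3.82, 16 higher on deposited TPM). The epithelial factor Ehf was at 186, 222 and 253 in pC and 0.805, 0.906 and 0.709 in H (6.93 ± 0.28, adjusted p = 6.95e-08). Glis3, mutated in a syndrome with liver and kidney cysts, was at 82.2, 88.1 and 102 in pC and 0.328, 1.04 and 0.311 in H. Klf5 (5.65) and Sox4 (5.44) were next, and Sox9 (ENSMUSG00000000567, chromosome 11, 112782224 to 112787760, plus strand) was at 255, 196 and 139.4 in pC and 3.02, 4.87 and 6.24 in H. Onecut2 and Bcl3 (0.77, adjusted p = 0.091) did not pass.

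Surface and identity genes of ducts were higher in 19 of 19 (median 5.35, 19 on deposited TPM and 17 with quantile normalisation). The duct keratin Krt19 (ENSMUSG00000020911, chromosome 11, 100140810 to 100148665, minus strand) was at 419, 403 and 536 scaled TPM in pC and 0.482, 0.206 and 0.186 in H (8.45 ± 0.30, adjusted p = 5.78e-08). The adhesion molecule Epcam was at 143.7, 141 and 154 in pC and 0.045, 0.14 and 0.441 in H, even among pC libraries and near 0 in H. Krt7 (5.71) and Cd24a (6.57) were alike.

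Genes of biliary secretion moved both ways. Of 17 tested, 13 were higher, 3 lower and 1 did not pass (median 1.39), while on deposited TPM 13 were higher and 1 lower. The calcium-activated chloride channel Ano1 was at 86.7, 66.7 and 77.4 in pC and 0.333, 0.386 and 0.327 in H, and the cyclic AMP-activated channel Cftr at 19.2, 15.6 and 36.8 in pC and 0.02, 0.098 and 0.057 in H. In both every pC library lay far above H. The sodium-glucose cotransporter Slc5a1 (3.55) and the sodium pump subunit Atp1b1 (3.26) were higher too. The secretin receptor Sctr, named after its values were seen, was at 1.6, 2.18 and 1.16 in pC and listed at 0 in all H libraries. The lower ones were all bile acid carriers of the ileum, ducts or hepatocyte membrane: Slc51b (-2.21), Abcc3 (-1.83) and the apical uptake carrier Slc10a2, at 5.77, 4.95 and 6.8 in pC and 20.2, 18.2 and 12.4 in H. On deposited TPM the Slc10a2 difference was 0.08, with the other sign. Pigr, whose product moves immunoglobulin A across the duct wall, was at 340.5, 481 and 238 in pC and 919, 1015 and 1158 in H and did not pass (adjusted p = 0.0555), although it did in a fit of pC and H alone (adjusted p = 0.00206). Its difference was 0.01 on deposited TPM, with the other sign. Slc51b varied among H libraries, at 9.56, 4.9 and 0.803, and without H1 or H2 it fell under the level for testing.

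Primary cilium genes were higher in 18 of 19 (median 1.56, 19 on deposited TPM). The RNA-binding protein gene Bicc1, known for cystic kidneys, was at 247, 189 and 254 in pC and 0.831, 0.81 and 2.15 in H. Pkhd1 (ENSMUSG00000043760, chromosome 1, 20057779 to 20618064, minus strand), mutated in recessive polycystic kidney and liver disease, was at 114, 115 and 148 in pC and 1.54, 1.86 and 1.96 in H. Ift57 (3.38) and Tulp3 (2.99), both of ciliary transport, were next, and 1 gene did not pass.

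Junction and polarity genes changed in kind. Of 25 tested, 17 were higher, 5 lower and 3 did not pass (median 1.36, 20 and 4 on deposited TPM). The claudins Cldn4, at 117, 97.7 and 216 in pC and 0.312, 0.799 and 0.649 in H, and Cldn7, at 87.8, 84.9 and 100.5 in pC and 0, 0.202 and 0.25 in H, were higher, as were the gap junction gene Gja1 (4.86) and Marveld3 (3.73). The lower ones were the liver connexins Gjb2 (-5.70) and Gjb1 (-3.93), the claudin Cldn1, at 0.297, 0.121 and 0.045 in pC and 19.99, 19.9 and 21.2 in H, N-cadherin, Cdh2 (-3.99), and Cldn2 (-1.44, or 0.05 on deposited TPM). The desmosome genes Pkp2 (-0.38, or 1.14 on deposited TPM) and Jup (1.30) and the polarity gene Pard3 (0.34) did not pass. Jup passed in a fit of pC and H alone (adjusted p = 3.08e-04).

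Basement membrane and integrin genes were higher in 21 of 24 and lower in 2 (median 3.05, 22 and 2 on deposited TPM). Itgb4, the hemidesmosome integrin, was at 54.8, 56.9 and 52.9 in pC and 0.102, 0.072 and 0.082 in H, and the laminin chain Lama5 at 59.7, 49.6 and 64.8 in pC and 0.332, 0.24 and 0.083 in H. Lamb1 (4.81) and Lamb2 (4.79) were next. The nidogens, which bridge laminin and collagen IV, lay the other way: Nid1 was at 0.778, 0.622 and 0.451 in pC and 4.3, 8.47 and 7.06 in H (-2.20 ± 0.28, adjusted p = 6.94e-05), and Nid2 at 0.149, 0.132 and 0.213 in pC and 3.16, 2.97 and 2.72 in H. Itga1 did not pass (-0.29, or 1.02 on deposited TPM). Of the cytoskeleton list 19 of 22 were higher and 1 lower (median 3.40, 21 and none on deposited TPM), led by Ezr, at 354, 250.3 and 384 in pC and 2.45, 2.03 and 2.61 in H, the calcium-binding S100a11 (5.99), the actin crosslinker Flna (5.62) and the annexin Anxa3 (5.24). The tubulin gene Tubb2a was lower (-1.25, or 0.33 on deposited TPM), and S100a10 (0.04) and Myl9, listed at 0 in all H libraries, did not pass.

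Related genes were also compared with each other within a library, on (scaled TPM + 1), so the ratios of low genes depend on the added 1 and through it on the scaling. For 23 pairs with both genes tested, the first the form known from hepatocytes and the second a relative, the log2 ratio of first to second did not overlap between pC and H in 22. Groups apart are common in this comparison: for single genes they did not overlap in 10366 of the 14765 tested. The first gene of the pair was relatively lower in pC in 21 of the 22, and in 9 pairs the gene in the lead changed between all H and all pC libraries. With a pseudocount of 0.1, and also on TPM as deposited, 21 pairs were apart, all with the first gene relatively lower in pC, and the lead changed in 9. The sizes moved: with a pseudocount of 0.1 the difference between the groups changed by over 1.5-fold in 12 pairs, was larger in each of these, and moved most for Ldha to Ldhb (-11.79 against -8.82 on the log2 scale), while on deposited TPM it changed by over 1.5-fold in 8 and was smaller in each. In 10 pairs the first was called lower and the second higher. With 3 libraries against 3 an exact permutation test could not go below p = 0.10, so none was run.

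Pairs of glucose metabolism came first. For pyruvate kinase the ratio of liver Pklr to Pkm was -1.75, -2.17 and -1.39 in pC1 to pC3 and 7.27, 6.50 and 6.84 in H1 to H3, and for glycogen phosphorylase that of liver Pygl to brain-type Pygb was -0.80, -0.77 and -1.61 in pC1 to pC3 and 8.27, 7.61 and 7.96 in H1 to H3. In each the liver form led in every H library and the other form in every pC library. For glycogen synthase the ratio of liver Gys2 to Gys1 was -1.24, -0.92 and -1.70 in pC1 to pC3 and 4.51, 4.38 and 4.58 in H1 to H3, with the same change of lead. The ratio of Ldha to Ldhb, of lactate dehydrogenase, was 0.44, 0.40 and 0.54 in pC1 to pC3 and 9.54, 9.17 and 9.13 in H1 to H3, with Ldha in the lead in every library.

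Adhesion and transport genes made further pairs. The ratio of Cdh2 to Cdh1, N- to E-cadherin, was -6.72, -6.84 and -7.66 in pC1 to pC3 and 0.67, 0.20 and 0.40 in H1 to H3, so the H libraries held both at close to even levels per length while pC held E-cadherin nearly alone. For gap junctions the ratio of Gjb1 to Gja1 was -1.11, -0.78 and -1.17 in pC1 to pC3 and 7.59, 7.91 and 7.80 in H1 to H3, for the uptake of basic amino acids that of Slc7a2 to Slc7a1 was -1.59, -0.77 and -1.92 in pC1 to pC3 and 6.22, 6.36 and 6.52 in H1 to H3, and for water channels that of Aqp9 to Aqp1 was -1.28, -0.82 and -1.46 in pC1 to pC3 and 5.83, 6.05 and 5.99 in H1 to H3. Onecut1 to Onecut2 was the pair whose groups overlapped, and Acacb to Acaca the pair that lay the other way (-2.77, -2.41 and -2.47 in pC1 to pC3 and -2.88, -3.27 and -3.37 in H1 to H3). The groups of Acacb to Acaca overlapped with a pseudocount of 0.1 and on deposited TPM, so that no pair was apart in that direction there.

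**Figure D4:**
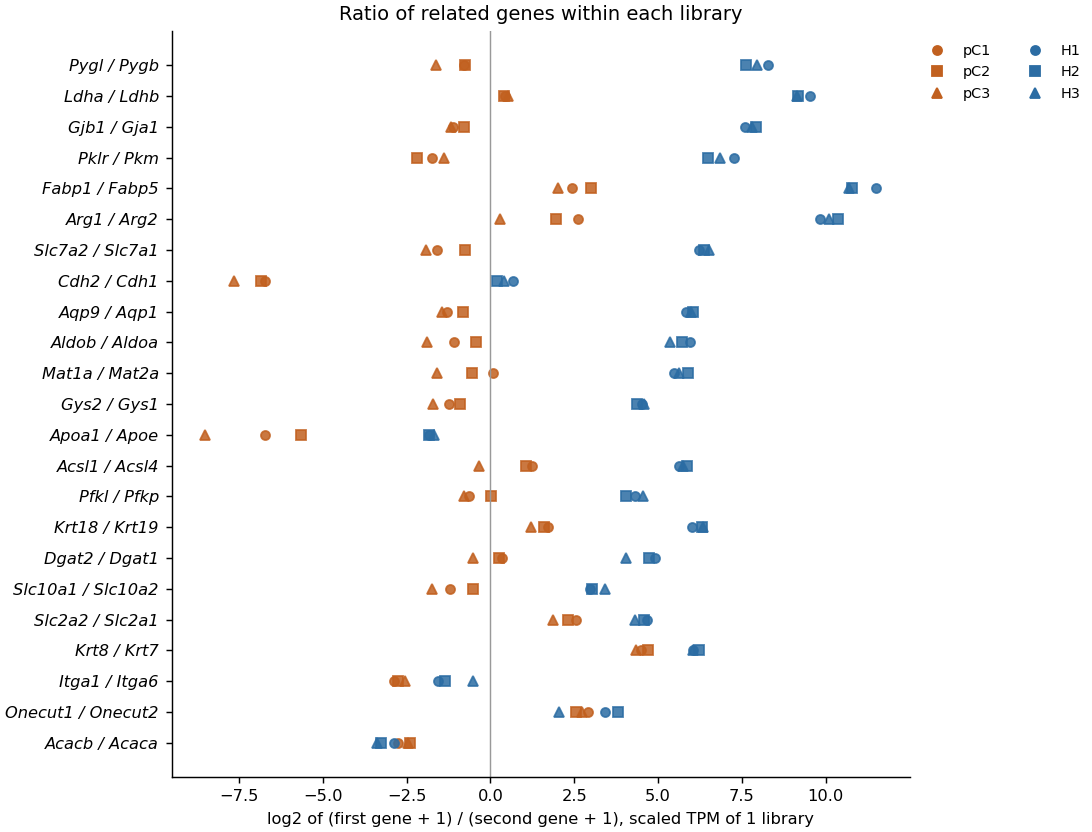
Log2 ratio of the first to the second gene of each pair, (scaled TPM + 1) in a single library (horizontal axis), for 23 pairs (rows) in the pC (orange) and H (blue) libraries. The groups are apart in 22 rows (21 with a pseudocount of 0.1), and in 9 the points of the groups lie on opposite sides of 0.

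Of the Notch pathway 10 of 20 genes were higher, 2 lower and 8 did not pass (median 0.83), and on deposited TPM 18 were higher and none lower. The ligand Jag1, mutated in a syndrome of too few bile ducts, was at 75.8, 45.6 and 74 in pC and 0.819, 1.22 and 0.579 in H (5.12 ± 0.25, adjusted p = 1.65e-07), the largest difference of the list on this scale. Hes1, Rbpj and Hey1, given above, were among the higher genes too. The lower ones were Rfng, a sugar transferase acting on Notch (-1.09, or 0.33 on deposited TPM), and the inhibitor Numb (-0.63, or 0.94). The Numb call ended without pC1 (adjusted p = 0.0557) or H3 (adjusted p = 0.0504). Of the receptors, named for their role, Notch2 was at 46.1, 43.2 and 43.2 in pC and 15.8, 17.8 and 16 in H (1.37 ± 0.15, adjusted p = 2.66e-05), with the groups apart. Notch1 was at 17.4, 38.7 and 29.7 in pC and 18.3, 21.6 and 23.2 in H, where pC1 lay below every H library, and did not pass (adjusted p = 0.431).

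Of the TGF-beta and BMP pathway 22 of 33 were higher and 2 lower (median 0.86), and on deposited TPM 31 were higher and 1 lower. Ltbp3, which stores latent TGF-beta in the matrix, was at 17.6, 17.3 and 18.8 in pC and 0.034, 0.026 and 0.116 in H. Of the ligands, named for their role, Tgfb1 was at 2.11, 3.82 and 3.02 in pC and 0.283, 0.065 and 0 in H, and Tgfb3 at 12.6, 8.64 and 8.88 in pC and 0.21, 0.242 and 0.182 in H. Both were close to 0 in H and higher in every pC library. The signal carrier Smad3 was at 59.1, 61.6 and 56.7 in pC and 12.4, 13.6 and 18.3 in H (1.95 ± 0.29, adjusted p = 2.40e-04), while its partner Smad2, at 23.1, 29.5 and 31.1 in pC and 19.5, 13.7 and 24.2 in H, overlapped between the groups and did not pass (adjusted p = 0.102). The BMP target Id1 was at 69.4, 52.5 and 24.2 in pC and 2.16, 1.4 and 1.42 in H, the ligand Tgfb2 at 11.1, 4.87 and 18.1 in pC and 0.062, 0 and 0.052 in H, and the coreceptor Tgfbr3 at 12, 12.1 and 8.84 in pC and 0.343, 0.11 and 0.143 in H. The activin subunit Inhbe, made by hepatocytes, was lower, at 0, 0.085 and 0 in pC and 28.7, 23.7 and 23.7 in H, and without any single H library it fell under the level for testing. Smurf2, an inhibitor of the pathway, was called lower (-0.37), but its sign changed on deposited TPM (1.17) and with quantile normalisation, and the call ended without any single pC or H library except pC1 (highest adjusted p = 0.102). Of the signalling receptors, named for their role, Tgfbr1 was at 9.12, 13.8 and 21.8 in pC and 11.4, 13.2 and 9.33 in H and did not pass (adjusted p = 0.414). Tgfbr2 was at 9.03, 6.7 and 7.65 in pC and 1.22, 4.28 and 5.17 in H (1.07 ± 0.35), a call that ended without pC1, pC3 or H1 (highest adjusted p = 0.0672).

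Of the Hippo pathway, which restrains YAP, 14 of 19 were higher and none lower (median 2.25, 19 on deposited TPM). They were foremost target genes: after Ankrd1, Ccn2 was at 356, 188 and 219.5 in pC and 0.581, 0.168 and 0.152 in H, and Ccn1 (ENSMUSG00000028195, chromosome 3, 145646976 to 145649981, minus strand), shown above with its promoter, at 1474, 855 and 832 in pC and 34.4, 17.4 and 28.8 in H. Amotl1 differed by 4.91. The 5 that did not pass were Yap1 itself, at 54.2 ± 7.41 in pC and 45.1 ± 7.52 in H (SD, n = 3 each), the kinases Lats1 (-0.03, or 1.46 on deposited TPM) and Stk4 (0.10), Nf2 (0.03) and Tead3 (0.43). Of the DNA partners of YAP, named for their role, Tead1 was at 43.6, 42.5 and 52.4 in pC and 8.41, 10.4 and 6.12 in H, and Tead4 at 9.23, 7.56 and 8.86 in pC and listed at 0 in all H libraries. The coactivator TAZ, encoded by Wwtr1, was at 16.9, 16.5 and 19.9 in pC and 3.29, 5.96 and 6.06 in H (1.65 ± 0.27, adjusted p = 4.11e-04). The Yap1 libraries overlapped between the groups on this scaling, while its difference passed on deposited TPM (1.83).

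Immediate early genes, which answer to growth signals and handling within minutes, were higher in 17 of 17 (median 3.74, 17 under each scaling). Fosb was at 534, 636 and 583 scaled TPM in pC and 3.6, 1.77 and 3.04 in H, and Atf3 at 2825, 2563 and 2666 in pC and 123, 23.5 and 59.9 in H. Nr4a1 (6.67) and Ier3 (6.51) also stood among the first. The list's most abundant members after Atf3, named for that, were Fos, at 2026, 1938 and 1285 in pC and 117, 35.8 and 70.0 in H, and Egr1, at 1137, 1311 and 1144 in pC and 128, 53.8 and 101 in H. Of the H libraries H2 was lowest in both. Ccn1 and Ccn2 are known to respond in the same way. Since pC cells had longer digestion, the share of these differences that comes with it cannot be told apart from that of the cell type. Heat shock genes went both ways: of 10 genes 3 were higher and 5 lower (median -0.41). On deposited TPM 5 were higher and 2 lower (median 1.09), and with quantile normalisation 4 and 3 (median 0.80). Hspb1 (3.75), Hspa1a (1.85) and Hspa1b (1.14) were higher, the last pair near-identical in sequence. The mitochondrial chaperones Hspd1 (-2.74) and Hspe1 (-2.57) and the chaperones Hspa5 (-1.67) and Hspa8 (-1.34, or 0.27 on deposited TPM) were lower, and Hsp90aa1 (0.07) and Dnajb1 (0.72) did not pass. Hspb1 was at 40.5, 27.8 and 32.7 in pC and 2.44, 1.25 and 1.13 in H, and Hspd1 at 47.7, 41.9 and 47.7 in pC and 326, 346 and 264 in H.

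Antigen presentation genes were higher in 13 of 16 and lower in 1 (median 1.69, 15 and none on deposited TPM). The class II genes led. Cd74 (ENSMUSG00000024610), the invariant chain, was at 368, 842 and 1076 in pC and 5.52, 6.44 and 6.12 in H, and H2-Ab1 at 82.3, 202 and 216 in pC and 0.53, 0.814 and 0.841 in H. H2-Eb1 (6.08) and H2-Aa (5.63) were close to these, and in all 4 pC1 was lowest of the pC libraries. B2m, the light chain of class I, was lower, at 823, 1139 and 857 in pC and 1552, 2092 and 2195 in H, but its sign changed on deposited TPM (0.56) and with quantile normalisation. Tapbp (0.51) and Tap2 (0.53) did not pass. Professional antigen-presenting cells also carry class II genes, and the macrophage marker Csf1r was at 16.7, 12.3 and 13.1 in pC and 0, 0.105 and 0.032 in H. The leukocyte gene Ptprc (CD45) did not reach the level for testing. The part of such cells in the class II levels was not tested. Reads of class I and class II genes can be split among close relatives, which makes single values uncertain.

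Of chemokines, cytokines and growth factors 17 of 26 were higher and 4 lower (median 1.65, 20 and 4 on deposited TPM). Cxcl16 was at 148, 155 and 369 in pC and 1.29, 1.61 and 1.56 in H, the neutrophil attractant Cxcl1 at 352, 310.0 and 716 in pC and 25.4, 22.2 and 20.6 in H, and the EGF-family ligand Hbegf at 87.2, 133 and 136 in pC and 1.81, 1.24 and 1.55 in H. Cx3cl1 (4.21) was higher too. For Cxcl16 and Cxcl1 pC3 was highest. The lower ones include known hepatocyte hormones, the iron hormone Hamp, at 98.7, 22.2 and 12.8 in pC and 2829.8, 1640.0 and 1184 in H, and Igf1 (-4.79). The growth factor gene Fgf1 (-4.68) was lower too. Il33 (0.04), Il18 (0.12), Areg (listed at 0 in all H libraries), Hgf (0.58) and Lcn2 (0.72) did not pass.

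Cell cycle genes showed few calls, with 3 of 16 higher and 1 lower (median 0.82). The higher ones were the cyclin Ccnd2, at 45, 18.8 and 39.5 in pC and 0.076, 0.047 and 0.148 in H, and the inhibitors Cdkn2b (1.31) and Cdkn1b (1.12), and the lower one was the inhibitor Cdkn2c (-1.14). In a fit of pC and H alone 10 were higher and 1 lower, and on deposited TPM 11 and none.

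Hepatocyte transcripts in the pC libraries were followed gene by gene, through the 100 coding genes most abundant in H. Of these, 94 were called lower in pC, against 29.7% of all genes tested. The set was chosen for its level in H, which by itself favours lower calls. Among the 100 coding genes most abundant in pC, chosen the other way, 45 were higher, 22 lower and 33 did not pass. In the set chosen by H, those called higher (4) include beta-actin (Actb), clusterin (Clu) and Gm10160, named after their values were seen. A further 2 did not pass, Hsp90aa1 among them. As a percentage of the mean level in H, the median of this set of 100 was 3.96% in pC1, 4.34% in pC2 and 2.36% in pC3. A set of 41 genes stood under 2% on average, and all 41 were lowest in pC3, where the median was 0.227 of the level in pC1 and 0.199 of that in pC2. A further 27 genes stood at 20% or more, and there pC3 was lowest in 16, at a median of 0.824 and 0.88 of pC1 and pC2. The gap between pC3 and the others was wider among the least retained genes. The genes were grouped by a mean that includes pC3, which by itself favours such a gap, so this is a description with no test. Chosen after their values were seen, Kng1 stood at 0.51%, 0.41% and 0.046% in pC1 to pC3, and the copper carrier ceruloplasmin, Cp, at 40.5%, 45.1% and 40.1%.

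**Figure D5:**
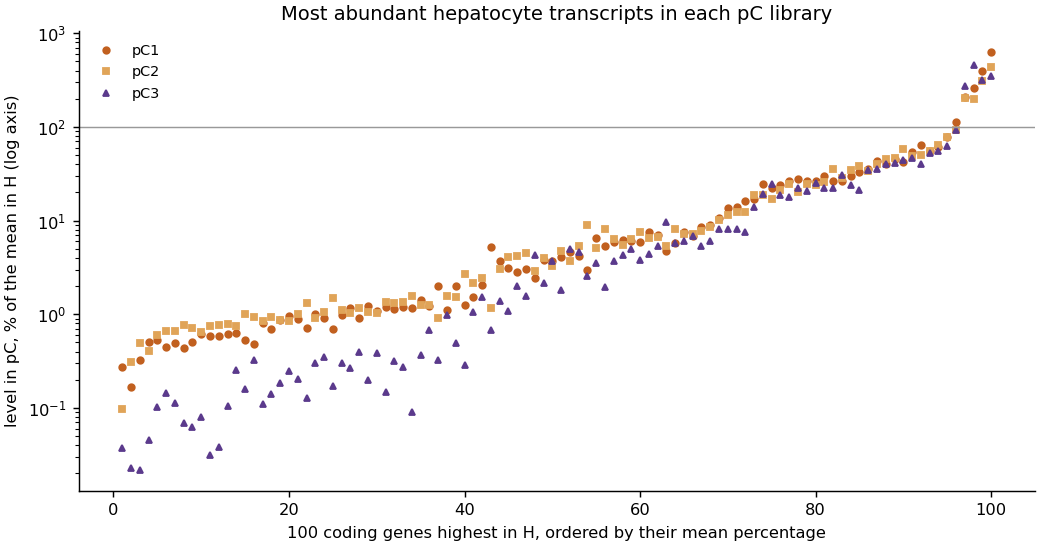
Level in each pC library as a percentage of the mean in H (vertical axis, log scale) for the 100 coding genes most abundant in H, ordered by their mean percentage (horizontal axis). The leftmost 41 genes average under 2% over the pC libraries, though single points lie above it (Ahsg at 2.69% in pC2). In these genes the pC3 triangles lie below the other libraries, and the libraries come together toward the right.

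Most markers of other cells were low in both groups, but pancreatic genes summed to 802 scaled TPM in pC3 and red blood cell markers to 35.1 to 76.5 in pC. Of 5 tested endothelial markers 3 were higher in pC, with a summed level of 4.86 to 7.43 scaled TPM in pC and 0.645 to 1.69 in H, and the calls of Clec4g and Cdh5 ended on leaving out single libraries (highest adjusted p = 0.0575 and 0.0737). Of 4 Kupffer cell and macrophage markers 3 were higher (18.3 to 23.3 against 0.083 to 0.73), most of it Csf1r. Of 7 stellate cell and fibroblast markers 3 were higher (19.96 to 29.8 against 2.24 to 3.23), led by Reln, at 14.5, 11.9 and 7.05, and Dcn, at 9.63, 8.5 and 6.49. Of 6 mesothelial markers 5 were higher (24.1 to 30.7 against 0.655 to 1.43), led by Gpm6a, at 20.4, 17.9 and 11, and Msln, at 4.62, 3.42 and 11.49. The call of Upk1b, another of the 6, ended on leaving out any pC or H library (highest adjusted p = 0.0993). On deposited TPM the counts of higher markers were 5 endothelial, 4 macrophage, 7 stellate and 4 mesothelial, and with quantile normalisation none, 1, 3 and 2 in that order. Of 7 leukocyte genes 1 was kept for testing and did not pass. The haemoglobin genes were higher in pC, Hba-a1 at 18.1, 13.2 and 13.8 and listed at 0 in all H libraries, while Alas2, of haem synthesis in red cells, was lower (-2.79). None of 6 pancreatic genes passed, with a summed level up to 802 in pC3 and 20.2 to 38.7 in H. The part of these cells in the results was not tested.

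For orientation, the HpC libraries, which share the genotype of H and the digestion of pC, are set beside both. This is done for a few genes picked without a set rule, so they stand for no wider set. The part of genotype or digestion in their levels was not tested. In order from HpC1 to HpC4, the level of Pkhd1 was 60.1, 39.4, 72.1 and 112, that of Fosb 333, 349, 448 and 762, that of Atf3 1039, 1211, 1425 and 2367 and that of Ccn1 384, 397, 705 and 904, in scaled TPM, all above every H library. Cyp2a5 was at 29.9, 20.9, 22.6 and 1.96 and Cyp7a1 at 14.7, 3.6, 9.32 and 0, below every H library. These comparisons share the H libraries with those above. HpC1 held transcripts of pancreas (Cela2a at 44970.4) and HpC2 of squamous epithelium (Krt13 at 30685.4), and both enter the spread of the fit. A fit of pC and H alone called 9109 genes, 4703 higher and 4406 lower.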

How the data were processed

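RNA of sorted mouse cells was sequenced with a low-input library kit, per the labels' protocols. The values deposited by the authors are TPM per transcript and library, corrected for transcript length and with the same total in each library. The submitters' processing notes name kallisto, DESeq and the build mm10, without versions or roles. Strand use and read depth are not given in the sources used here. TPM keeps no depth, so no interval of counting error could be given.

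Of 85276 transcripts, 81927 were matched to a gene and summed into 29972 genes, and 3349 were left out. Genes at 1 TPM or more in at least 3 of 10 libraries (14765) were kept. Libraries were rescaled by a trimmed mean of log ratios (30% of the ratios and 5% of the levels trimmed at each end). Differences were tested on log2(scaled TPM + 1), pseudocount 1, with limma 3.58.1 (R 4.3.3, variance trend, all 10 libraries, contrast pC minus H) and Benjamini-Hochberg adjustment at 0.05. The plan allowed for a count test, which TPM do not permit. Fits were tested on simulated data. Tables and figures used python 3.11.15, pandas 2.3.3, numpy 2.4.6 and matplotlib 3.10.9.

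Gene lists, pairs and members were chosen with earlier results of these data known, so they describe and do not test. The genes named are the 12 with the largest difference in each direction (coding, past the threshold, mean log2 level of at least 5, groups apart), paired genes, the 4 largest members of each list in each direction, members against the list's direction, members not past the threshold where 5 or fewer, the floxed genes with Hes1 and Hey1, and markers. Some genes that this rule covers are not reported here. Others are marked in the text as chosen after their values were seen or for their role. Alternatives were other scalings (TPM as deposited, median of ratios, quantile normalisation, nuclear coding genes only), pseudocounts of 0.1 and 5, no filter or 5 TPM, and a fit of pC and H alone. That fit was also run with the replicate number as a block, and the main fit with each pC or H library left out in turn. No HpC library was left out singly. Reads of near-identical genes (Cyp2a4 and Cyp2a5, Cyp3a41a, Tgtp2, Hspa1a and Hspa1b, class I and II genes, haemoglobins, mitochondrial genes with nuclear copies) may be split, so their values are uncertain.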

Additional observations from a re-analysis of the deposited data

How the results depend on the processing

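The count of genes called ran from 7722 to 8103 when each pC or H library was left out in turn, with 3807 to 4058 higher and 3871 to 4045 lower. On TPM as deposited it was 9361 higher and 1255 lower, which follows from leaving out the scaling factors. The replicate numbers do not pair the libraries (correlations of deviations of same-numbered pC and H libraries were -0.035, 0.081 and 0.017), and with the replicate block in a fit of pC and H alone 8700 genes were called. Of 226 genes followed, 180 were called, and 4 of these (Numb, Smurf2, Clec4g and Cdh5) lost the call without 1 library, as did Tgfbr2 and Upk1b, named above but not among the 226. In the fit of pC and H alone 11 genes gained the call and 1 lost it. Among genes past the threshold before or after the change, the difference changed sign on TPM as deposited in 16: Slc2a2 (1.46), Nr5a2 (1.38), Onecut1 (1.46), Slc10a2 (0.076), Cldn2 (0.048), Pkp2 (1.14), Itga1 (1.02), Tubb2a (0.33), Rfng (0.33), Numb (0.94), Smurf2 (1.17), Lats1 (1.46), B2m (0.56), Hspa8 (0.27), Pfkl (1.52) and Acsl4 (1.08). With quantile normalisation it did in 4: Slc2a2 (0.84), Smurf2 (0.055), B2m (0.71) and Hspa8 (0.49). None that was past the threshold before or after changed sign under the other alternatives run. Genes past it in neither changed sign too, 4 on TPM as deposited (among them Foxa2, Gstp1 and Pigr), 12 with quantile normalisation and at most 7 under any other alternative. The ratios of gene pairs were apart in 21 of 23 pairs with a pseudocount of 0.1 and on TPM as deposited, against 22. The cause was not tested. Low genes and those near 1 TPM are limited by a depth that the values do not show, and 3 libraries a group limit all errors.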
